A study of Mus musculus with 4 samples.

Results

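Potassium channel genes were taken as the protein-coding mouse genes whose symbol is Kcn followed by letters and a closing number, in the RefSeq gene table of GRCm38.p6, the assembly whose coordinates are those of mm10. Of 92 such symbols, Kcnq1 and Kcnk9 were left out because they lie in imprinted domains, which left 90 of 21883 protein-coding genes. Around each gene, the CTCF peaks in the annotated gene and in the 50 kb on either side were collected from both deposited peak lists. The choice used gene names and positions and no peak.

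The study mapped CTCF with ChIP-seq, the sequencing of DNA fragments recovered with an antibody, in forebrain tissue of mouse embryos at embryonic day 13.5. It has 1 CTCF library from the telencephalon and 1 from the medial ganglionic eminence (MGE), the ventral region of the telencephalon that produces many cortical interneurons, each with an input library that is not analysed here. No genotype, strain, treatment agent or number of pooled embryos is given by the labels. Both used a rabbit antibody against CTCF. The treatment label describes dissection of the MGE for every sample, the telencephalon track name begins with e14, and whether MGE tissue was part of the telencephalon sample is not given by the labels. Libraries from telencephalon were made with the NEB ChIP-Seq kit and those from MGE with the NEBNext Ultra II kit, so tissue and kit cannot be told apart in any comparison below. The MGE list had 25625 usable peaks, at least 244 bp wide, of which 58.4% overlapped a telencephalon peak by at least 1 bp and are called shared. The telencephalon list had 31886, at least 150 bp wide, of which 47.0% were shared. The lists hold positions and no counts, so the depth is unknown, the tissue labels could not be checked against marker expression, and the absence of a peak does not show the absence of CTCF. With 1 library per tissue, no p-value was computed, and the bracketed ranges are exact 95% intervals that cover counting error alone.

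Potassium channels let potassium ions leave or enter cells along their gradient and so set the resting potential, the shape of action potentials and the firing rate of neurons. Their genes fall into voltage-gated pores, silent subunits that modify such pores, auxiliary subunits, inward rectifiers, tandem-pore leak channels and channels opened by intracellular calcium or sodium. CTCF is a zinc finger protein that binds a long, GC-rich motif and, together with cohesin, marks many anchors of chromatin loops and borders of domains.

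Promoters under a peak are shown first, because they are the places where a site can be read letter by letter. RefSeq promoter windows, 300 bp long with 250 bases before the start and 50 after it, were found for 67 of the 90 genes, which gave 92 windows. A peak overlapped 4 of these 92 windows in the MGE list (3.83% of all 32851 windows) and 6 in the telencephalon list (6.46%). The 4 with a peak in both lists (3.35% of all windows) belonged to Kcnk13, Kcnh1, Kcnj6 and Kcnip2, and those with a telencephalon peak alone to Kcnk15 and Kcnn1. Such counts are near the share of all promoters. The 250 bases before the start are printed for the 4 genes in which a letter pattern of CTCF sites was found, 5′ to 3′ on the gene's strand, from RefSeq on GRCm38.p6. Capitals mark the matches to the core pattern CCA-NN-AG-NN-GGC or to the shorter AG-N-GGG-CGC, in either orientation, where N is any base.
Kcnk13, chr12:99964249-99964498, plus strand: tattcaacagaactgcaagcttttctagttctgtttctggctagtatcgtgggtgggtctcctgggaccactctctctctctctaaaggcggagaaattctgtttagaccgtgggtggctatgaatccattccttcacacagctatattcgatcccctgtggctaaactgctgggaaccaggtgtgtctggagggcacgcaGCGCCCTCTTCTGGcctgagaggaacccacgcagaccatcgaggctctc
Kcnh1, chr1:192190527-192190776, plus strand: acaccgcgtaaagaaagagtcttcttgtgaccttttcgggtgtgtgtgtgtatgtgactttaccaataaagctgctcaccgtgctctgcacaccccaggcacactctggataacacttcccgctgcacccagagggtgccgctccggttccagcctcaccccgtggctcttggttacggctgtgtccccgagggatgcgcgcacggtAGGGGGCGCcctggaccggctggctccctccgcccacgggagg
Kcnj6, chr16:94997697-94997946, minus strand: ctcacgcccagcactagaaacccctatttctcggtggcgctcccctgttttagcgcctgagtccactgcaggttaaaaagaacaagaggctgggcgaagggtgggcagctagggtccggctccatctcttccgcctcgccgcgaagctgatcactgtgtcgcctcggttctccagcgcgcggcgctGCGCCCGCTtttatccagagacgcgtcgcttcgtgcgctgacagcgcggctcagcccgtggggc
Kcnk15, chr2:163853500-163853749, plus strand: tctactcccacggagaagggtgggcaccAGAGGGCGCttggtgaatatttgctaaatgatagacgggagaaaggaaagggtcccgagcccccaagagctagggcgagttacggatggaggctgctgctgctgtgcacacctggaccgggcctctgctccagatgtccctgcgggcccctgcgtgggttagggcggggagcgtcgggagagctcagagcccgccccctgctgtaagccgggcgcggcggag

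In Kcnk13, which encodes a leak channel known from microglia, the core and the short pattern overlapped in the run GCGCCCTCTTCTGG, in which both read on the opposite strand. The run lay inside a 676 bp MGE peak (chr12:99964247-99964922) and a 256 bp telencephalon peak (chr12:99964311-99964566), with the core 127 bp from the midpoint of the MGE peak and 19 bp from that of the telencephalon peak. In Kcnh1, a voltage-gated pore of the ether-a-go-go family, AGGGGGCGC lay 7 bp from the midpoint of a 316 bp MGE peak (chr1:192190574-192190889) and 60 bp from that of a 257 bp telencephalon peak (chr1:192190550-192190806). Both of these starts lie within the annotated gene, over 1 kb from its lower-coordinate end, so neither peak counts as a gene-end peak in the later counts. In Kcnj6, a pore of G-protein-gated inward rectifiers, GCGCCCGCT lay at the midpoint of a 440 bp MGE peak (chr16:94997537-94997976) and 28 bp from that of a 207 bp telencephalon peak (chr16:94997625-94997831). The Kcnk15 window, of a leak channel subunit, met a 197 bp telencephalon peak (chr2:163853404-163853600) whose midpoint was 30 bp from AGAGGGCGC, while the nearest MGE peak was 4697 bp away. Kcnip2 and Kcnn1 held no match to either pattern in their windows, and the Kcnip2 peaks covered only 29 and 27 bp of the window, on its transcribed side.

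The core pattern stood in 4 of the 92 windows (2.43% of all windows), which were those of Kcnk13, Kcnab1, Kcnj16 and Kcnj2, and all but Kcnk13 had no peak. Over all promoters it stood in 17.9% of windows with a peak in both lists and in 1.70% of windows with none. The short pattern, chosen after these promoters had been seen, stood in 5 of the 92 windows (2.88% of all windows), namely the 4 printed ones and that of Kcnmb4, which had no peak. Its shares in these classes of all promoters were 26.4% and 1.83%. Kcnh1, Kcnj6 and Kcnk15 are marked by the short pattern alone. A looser core, CC-NNN-AG-NN-GGC, stood in 5 of the 92 windows (8.61% of all windows), those with the core and that of Kcnh2, and so under a peak in Kcnk13 alone. Over all promoters it stood in 43.6% of windows with a peak in both lists and in 6.82% of windows with none. A match describes letters and is not shown to be a bound site.

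Nearly every potassium channel gene had CTCF peaks in or near it in both tissues. Inside the gene or up to 50 kb away from it, 81 of the 90 genes (90%, 81.9 to 95.3) had an MGE peak, where 80.3% of all protein-coding genes had one. A telencephalon peak was found for 85 (94.4%, 87.5 to 98.2), where 82.8% of all genes had one. Both lists gave a peak to 79 genes (74% of all genes) and neither to 3 (11% of all genes). Kcnh5 and Kcnc2 had a peak in the MGE list alone (6.23% of all genes), and Kcnd1, Kcnj16, Kcnab3, Kcna1, Kcna3 and Kcnv1 in the telencephalon list alone (8.77% of all genes). Since most genes had a peak in each list, most had to have one in both, and the overlap does not measure likeness of the tissues. Peaks per window ran from 0 to 11 in the MGE list, with a median of 2.5, and from 0 to 12 in the telencephalon list, with a median of 3. For all genes the medians were 2 and 3. More telencephalon than MGE peaks were found around 54 of the 90 genes (58.4% of all genes), fewer around 12 and the same number around 24. This order of the lists depended on the widths kept. The lists differ in their narrowest peaks. Peaks of at least 244 bp were kept in both, an alternative chosen after seeing the data that removes no MGE peak. The telencephalon list then had more peaks around 27 genes (29.0% of all genes), fewer around 31 (30.2%) and the same number around 32. These counts of more and fewer are close to each other, as they are over all genes. A peak was then found for 81 genes in the MGE list and for 77 in the telencephalon list.

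**Figure D1:**
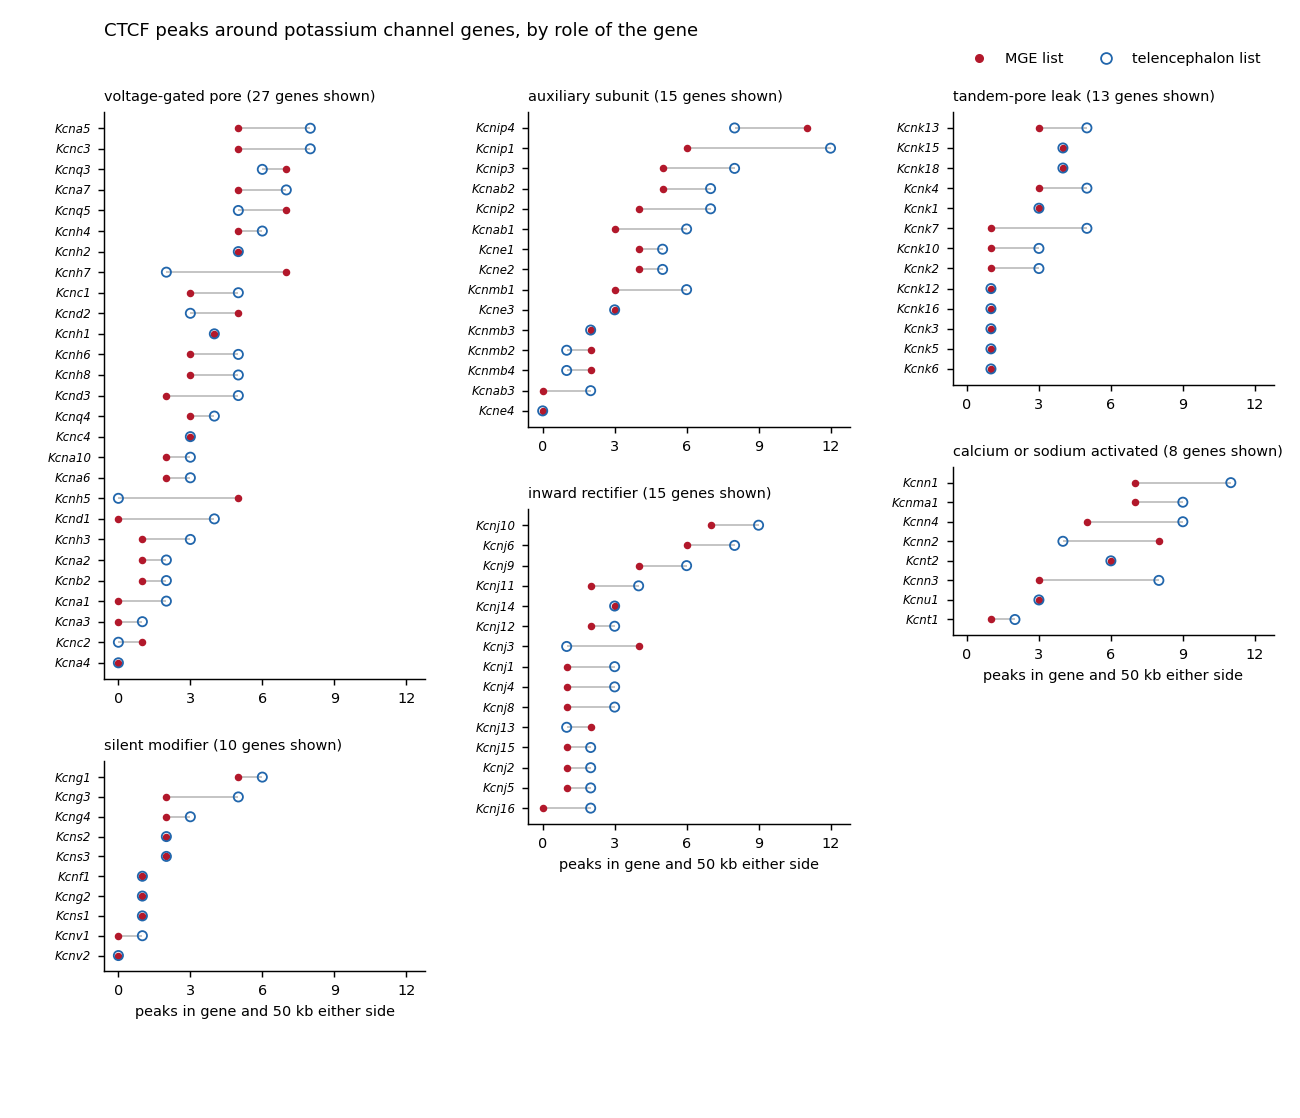
CTCF peaks in potassium channel genes and 50 kb either side of them (x axis, number of peaks; 1 row per gene shown, 1 panel per role), with filled red points for the MGE list and open blue circles for the telencephalon list. Most blue circles lie at or right of the red points, and the exceptions with the widest gaps are Kcnh7, Kcnh5 and Kcnn2. All widths are drawn, and with peaks of at least 244 bp alone fewer telencephalon peaks are found around 31 genes and more around 27.

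Windows of neighbouring genes overlap, so peaks were also counted once. The 18.8 Mb covered by the windows held 254 distinct MGE peaks (13.5 per Mb, 11.9 to 15.3) and 329 telencephalon peaks (17.5 per Mb, 15.7 to 19.5). The windows of all protein-coding genes held 11.7 and 16.4 per Mb. Of the MGE peaks 177 were shared (69.7%, 63.6 to 75.3), against 68.1% in the windows of all genes. Of the telencephalon peaks 176 were shared (53.5%, 47.9 to 59.0), against 48.5%. Both orders turned with peaks of at least 244 bp in both lists, a cut at the narrowest MGE width that removes no MGE peak. It left 254 MGE peaks with 59.4% shared and 218 telencephalon peaks (11.6 per Mb) with 68.8% shared. Neither order turned with the wider 50% of each list (7.88 and 9.95 per Mb, 75.7% and 59.4% shared). The same held with the telencephalon list cut to the MGE number of peaks (13.5 and 14.3 per Mb, 66.5% and 62.5% shared). Shared peaks were wider, with medians of 362 bp and 363.5 bp, than those without a partner, with 244 bp among MGE peaks and 227 bp among telencephalon peaks. The widest belonged to Kcnab2, a beta subunit of voltage-gated channels, in which 1 shared peak was 839 bp wide in the MGE list (chr4:152434916-152435754) and 1015 bp wide in the telencephalon list (chr4:152434868-152435882).

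Among the 29 voltage-gated pore genes, 25 had an MGE peak within 50 kb (80.3% of all genes) and 26 a telencephalon peak (82.8%). Their windows held 93 and 112 distinct peaks, of which 62 and 61 were shared. Kcnc1, which encodes a fast pore that lets interneurons fire at high rates, had 3 MGE peaks, and all were shared. Its 5 telencephalon peaks were these 3 and another pair on its lower-coordinate side. Kcnc2, the closest relative of Kcnc1 in interneurons, had a single MGE peak of 244 bp inside the gene (chr10:112448697-112448940) and no telencephalon peak closer than 109378 bp.

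The genes of the M-current, a slow current that restrains repeated firing, differed among themselves. Kcnq3 had 7 MGE and 6 telencephalon peaks, and 6 of each list were shared, 5 of them inside the gene. Kcnq5 had 7 and 5, with 3 shared, and 4 of its MGE peaks had no telencephalon partner and were 244 bp wide, the narrowest width of that list. The A-type pore genes Kcnd2 and Kcnd3, whose current delays firing, also differed. Kcnd2, which is 514460 bp long, had 4 MGE and 2 telencephalon peaks inside it and none of them was shared. Kcnd3, which is 222113 bp long, had no peak inside it in either list, while a shared peak lay 620 bp (MGE, chr3:105674622-105674972) and 645 bp (telencephalon) beyond its higher-coordinate end.

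Peaks inside Kcnh7 and Kcnh5, long pore genes of the ether-a-go-go family, came from the MGE list alone. Kcnh7 held 6 MGE peaks of 244 to 347 bp and no telencephalon peak, and the nearest telencephalon peak was 38582 bp outside the gene. Kcnh5, which was singled out after its values had been seen, held 3 MGE peaks of 244 to 393 bp and had another 2 within 50 kb, while the nearest telencephalon peak lay 212109 bp away. The 5 MGE peaks of Kcnh5 were 311017 bp or more from any telencephalon peak. Kcnh1 showed no such gap, with 4 peaks around the gene in each list and 2 shared.

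Pore genes of the Shaker family lie in clusters, so their windows share peaks. Kcna5, Kcna1 and Kcna6 span chr6:126532551-126740834, and with 50 kb on each side this stretch held 7 MGE peaks, all shared, and 12 telencephalon peaks with 7 shared. The peaks were not spread evenly. Between Kcna5 and Kcna1, which are 100907 bp apart, lay 3 MGE and 5 telencephalon peaks, all on the side of Kcna5. Between Kcna1 and Kcna6, which are 62526 bp apart, lay 2 and 3. Kcna1, a pore of axons and nerve terminals, had no MGE peak closer than 53030 bp and a 150 bp telencephalon peak inside it (chr6:126642922-126643071), the narrowest width of that list. The second cluster, with Kcna3, Kcna2 and Kcna10 at chr3:107036162-107195721, held 3 MGE peaks, all shared, and 5 telencephalon peaks. Its shared peak inside Kcna2 was 249 bp wide in the MGE list (chr3:107094067-107094315) and 301 bp in the telencephalon list, and Kcna3 had no MGE peak closer than 55938 bp.

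**Figure D2:**
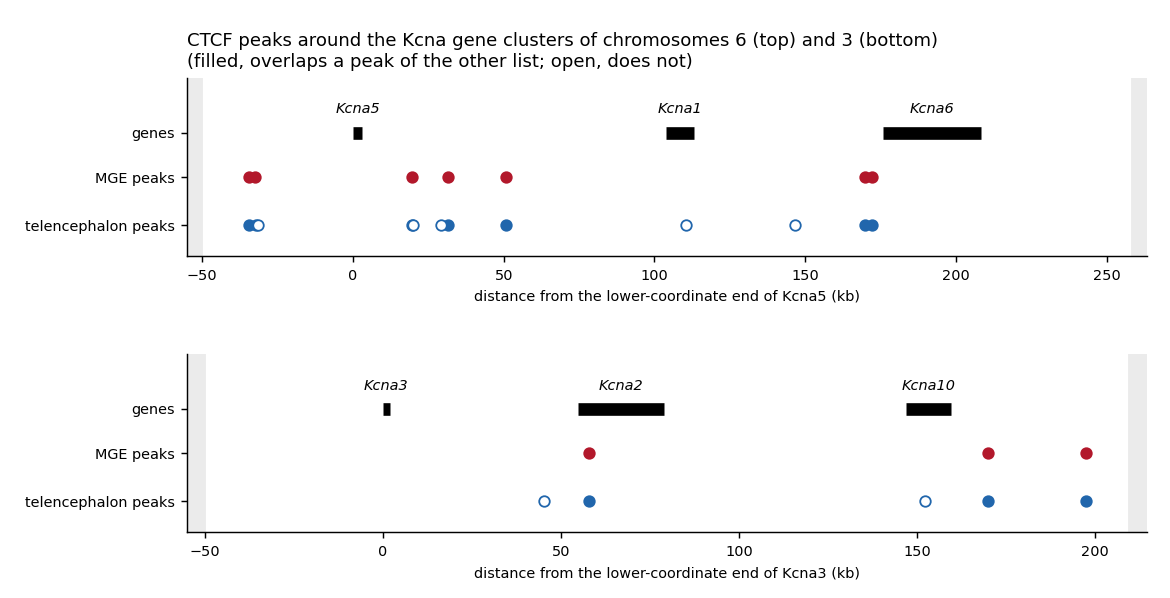
CTCF peaks (points, at their midpoints) around the Kcna5, Kcna1 and Kcna6 genes on chromosome 6 and the Kcna3, Kcna2 and Kcna10 genes on chromosome 3, with genes as black boxes, distance in kb on the x axis, filled points for shared peaks and open circles for the rest. All 7 and 3 MGE peaks are filled, and Kcna1 has only an open telencephalon circle over it.

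The 10 genes of silent modifiers, subunits that form no channel alone and change the behaviour of others, were close to all genes in their peaks. A peak within 50 kb was found for 8 of them in the MGE list and for 9 in the telencephalon list, near the shares of all genes. Their windows held 16 and 22 distinct peaks (12.5 and 17.3 per Mb, where the windows of all genes held 11.7 and 16.4), with 12 shared in each. Kcns3, a subunit known from fast-spiking cortical interneurons, had 2 peaks in each list, all shared and all at least 27652 bp from the gene. Kcng3 had 2 MGE peaks, both shared, and 5 telencephalon peaks. Kcnv1 had no MGE peak closer than 106621 bp and a single telencephalon peak of 240 bp near a gene end (chr15:45114689-45114928).

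Of the 15 auxiliary subunit genes, 13 and 14 had a peak within 50 kb (80.3% and 82.8% of all genes). Their windows held 48 and 63 distinct peaks, with 32 shared in each list. The Kcnip genes encode Kv channel-interacting proteins, calcium sensors that escort A-type pores to the membrane. Kcnip4, the longest of all 90 genes at 1135620 bp, had 11 MGE and 8 telencephalon peaks with 3 shared. Inside it 10 MGE peaks and 7 telencephalon peaks had only 2 sites in common. Kcnip1, which marks interneurons of the cortex and hippocampus, had 6 and 12 peaks with 5 shared, and inside it 4 and 9 with 3 shared. Kcnip3 had 5 and 8 peaks and Kcnip2 4 and 7, and all MGE peaks of both were shared. Of the 4 genes of this family, 3 thus had more telencephalon peaks and Kcnip4 fewer. Kcnmb2, a beta subunit that inactivates calcium-activated pores, had 2 MGE peaks and 1 telencephalon peak, and a site of 296 and 297 bp was shared. The neighbours Kcne2 and Kcne1, 47867 bp apart, had 5 MGE peaks between and around them, all shared, and 6 telencephalon peaks.

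Of the 15 inward rectifier genes, 14 and 15 had a peak within 50 kb (80.3% and 82.8% of all genes). Their windows held 32 and 43 distinct peaks, with 23 shared in each list. Kcnj10, which encodes the main potassium channel of astrocytes and other glia, had 7 MGE and 9 telencephalon peaks with 6 shared. Its neighbour Kcnj9, a subunit of G-protein-gated channels of neurons, lies 11887 bp away, and no peak of either list fell between them. All 3 peaks inside Kcnj10 were shared, with widths of 392, 424 and 469 bp in the MGE list, while the pair of telencephalon peaks inside Kcnj9 had no MGE partner. Kcnj3, another subunit of G-protein-gated channels, had 4 MGE peaks and 1 telencephalon peak, and its shared site was 258 bp (chr2:55442040-55442297) and 242 bp wide. Kcnj6 had 6 and 8 peaks with 4 shared, and its neighbour Kcnj15 1 and 2 with 1 shared. Around the neighbours Kcnj16 and Kcnj2 lay 1 MGE and 2 telencephalon peaks, and none was shared.

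All 13 tandem-pore leak channel genes had a peak within 50 kb in both lists (74% of all genes). Every one of them had a shared peak (68.2% of all genes). Their windows held 25 MGE peaks, of which 22 were shared (88.0%, 68.8 to 97.5), and 37 telencephalon peaks, of which 22 were shared (59.5%, 42.1 to 75.2). All 6 MGE peaks inside these genes were shared. The longest of these genes has 194853 bp. Over all potassium channel genes under 200 kb, 78.4% of MGE peaks inside and 85.4% in the flanks were shared. Both values lie within the interval of the leak channel genes, so a high MGE share is not particular to them. Kcnk2, a stretch-sensitive leak channel of neurons, had 1 MGE and 3 telencephalon peaks inside it, and the shared site was 257 bp (chr1:189253267-189253523) and 262 bp wide. Kcnk1 had 3 peaks in each list and Kcnk13 had 3 and 5, and all MGE peaks of both were shared.

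All 8 genes of calcium- or sodium-activated channels had a peak within 50 kb in both lists (74% of all genes). Their windows held 40 and 52 distinct peaks, with 26 shared in each. Kcnn1, which encodes a small-conductance calcium-activated pore, is 22534 bp long and had 7 MGE peaks, all shared, and 11 telencephalon peaks. Kcnn4, the intermediate-conductance member known from blood and epithelial cells, had 5, all shared, and 9. Kcnn2, a small-conductance pore of forebrain neurons that is 417138 bp long, leaned the other way, with 8 MGE and 4 telencephalon peaks inside it and 2 shared. Of the 8 MGE peaks, 5 were 244 bp wide. Kcnma1, the pore of the large-conductance channel, had 7 MGE and 9 telencephalon peaks with 5 shared. A 491 bp telencephalon peak without an MGE partner lay at its higher-coordinate end (chr14:24004859-24005349), and a shared peak lay 3186 bp beyond that end in the MGE list. Kcnt1, a sodium-activated pore, had 1 and 2 peaks, none inside the gene, with 1 shared.

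More of the long than of the short genes had a peak inside. A peak overlapped 42 of the 90 genes in the MGE list (46.7%, 36.1 to 57.5; 31.4% of all genes) and also 42 in the telencephalon list (39.1% of all genes), which fell to 31 in the telencephalon list and stayed at 42 in the MGE list with peaks of at least 244 bp. Of these, 35 had a peak in both lists (27% of all genes). Potassium channel genes had a median length of 32691.5 bp against 17170 bp for all genes. Over the 90 genes, length and the number of peaks inside had a Spearman correlation of 0.68 in the MGE list and 0.53 in the telencephalon list, and all points come from this pair of libraries. Over all protein-coding genes the values were 0.51 and 0.53. Among the 37 genes of at least 44341 bp, 75.7% (58.8 to 88.2) had an MGE peak inside, where 65.3% of all genes of that class had one, and 67.6% (50.2 to 82.0) had a telencephalon peak, where 72.9% did. In each of the 4 length classes, the interval of the potassium channel genes held the value of all genes of that class, both for the gene and for the gene with 50 kb.

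**Figure D3:**
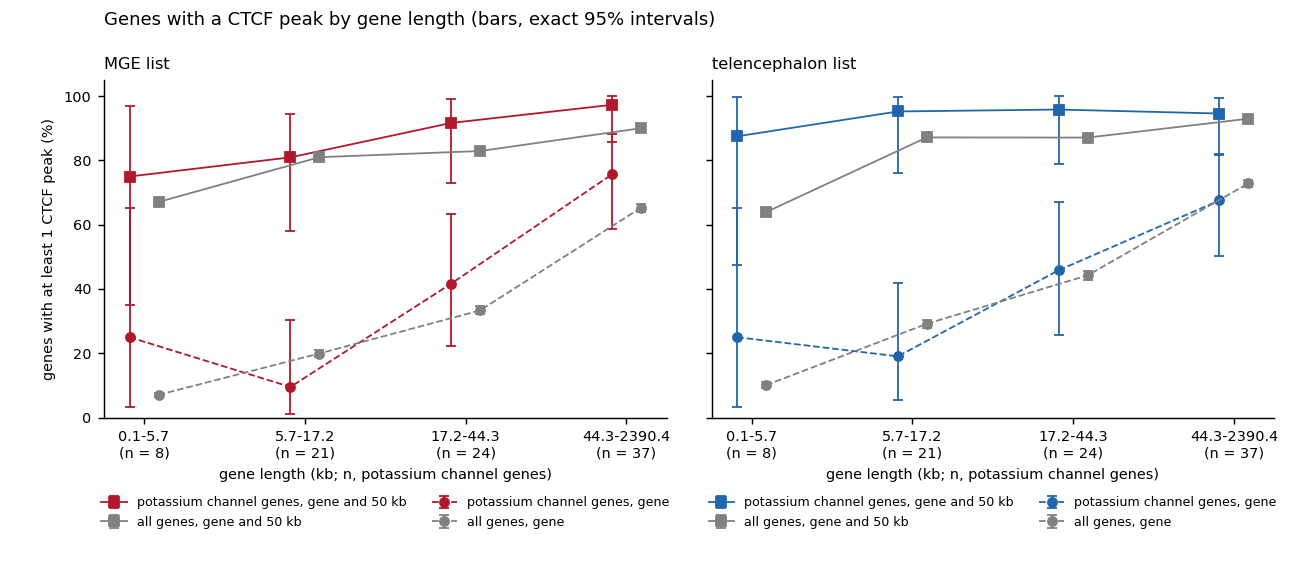
Percent of genes with at least 1 CTCF peak (y axis) in 4 classes of gene length in kb (x axis, with the number of potassium channel genes), in the gene (circles, dashed) and in the gene with 50 kb (squares, solid). Colored points are potassium channel genes with exact 95% intervals and grey points all protein-coding genes, which lie within the colored intervals in every class.

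Peaks inside and beside the genes differed in how many were shared. Inside the 90 genes each list had 110 peaks, of which 58 were shared (52.7%, 43.0 to 62.3). In the flanks 119 of 144 MGE peaks were shared (82.6%, 75.4 to 88.4) and 118 of 219 telencephalon peaks (53.9%, 47.0 to 60.6). Pooled over gene lengths, the MGE share was thus lower inside than beside the genes, with intervals that do not meet. Split at a length of 200 kb, as given below, the inside and flank intervals overlapped in both groups of genes. The pooled telencephalon shares lay close to each other. For all protein-coding genes, with each peak counted once, the MGE shares were 65.1% inside and 72.5% in the flanks, which then exclude peaks inside any other gene. Summed gene by gene, so that a peak counts for every gene it is near, the flank shares were 83.1% for the 90 genes and 79.3% for all genes.

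The MGE share inside genes was low in the longest ones. A limit of 200 kb was chosen after the data had been seen, and 17 of the 90 genes reach it. Inside these 17, 29 of 73 MGE peaks were shared (39.7%, 28.5 to 51.9), near the 47.4% of all genes of that length. Inside the other 73 genes, 29 of 37 were shared (78.4%, 61.8 to 90.2), near the 72.4% of all shorter genes. In the flanks of the long genes 10 of 17 MGE peaks were shared (58.8%, 32.9 to 81.6). In the flanks of the shorter ones 111 of 130 were (85.4%, 78.1 to 91.0). In the telencephalon list the shares inside long and shorter genes were 47.5% (34.6 to 60.7) and 59.2% (44.2 to 73.0). Of the 44 MGE peaks without a partner in the long genes, 27 had the narrowest width of 244 bp. With peaks of 244 bp or less left out of both lists, an alternative chosen after seeing the data, the MGE share was 56.2% inside the 90 genes and 83.6% in their flanks. More MGE than telencephalon peaks lay inside 9 of the 17 long genes (52.9%, 27.8 to 77.0), and the interval held the 31% of the 989 protein-coding genes of that length.

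**Figure D4:**
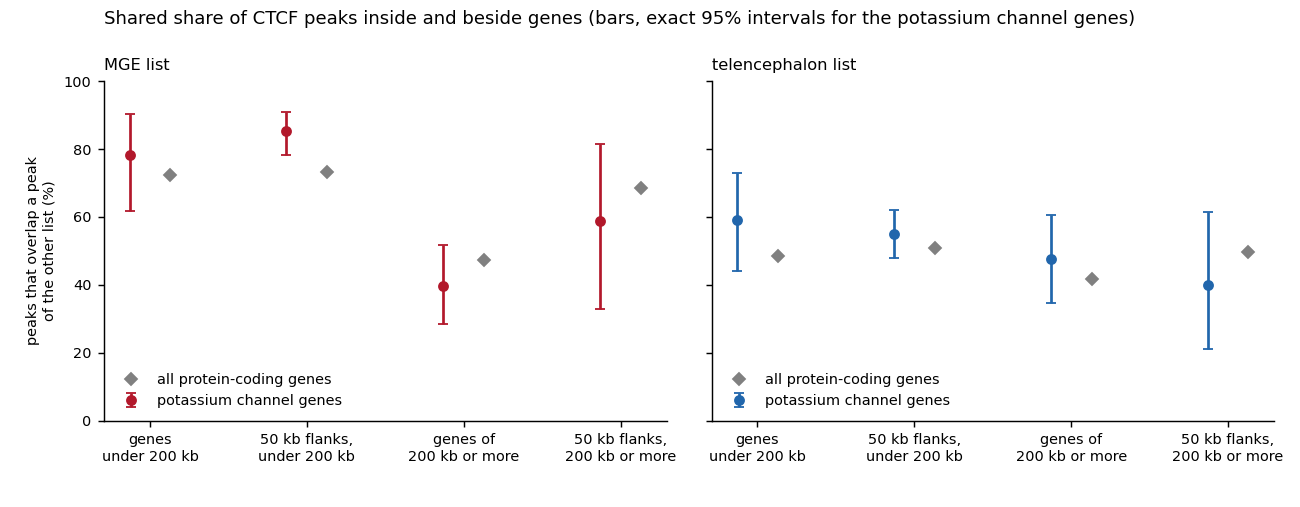
Percent of CTCF peaks that overlap a peak of the other list (y axis), inside genes and in their 50 kb flanks, for genes under 200 kb and genes of 200 kb or more, with the MGE list on the left and the telencephalon list on the right. Colored points with exact 95% intervals are potassium channel genes and grey diamonds all protein-coding genes, with each peak counted once and none inside any gene of the set counted as a flank peak; the MGE value inside long genes, 39.7%, is the lowest red point.

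Among the 17 long genes the patterns ranged widely. Kcnq3 had 6 MGE and 5 telencephalon peaks inside with 5 shared, Kcnma1 6 and 8 with 4 shared, and Kcnj6 4 and 6 with 3 shared. At the other end, Kcnd2, Kcnh7 and Kcnh5 had MGE peaks and none shared. Kcnip4, Kcnn2, Kcnt2, Kcnab1 and Kcnh8 lay in between, with 1 or 2 shared sites each. Kcnt2, a sodium-activated pore, had 4 peaks inside in each list and 1 shared.

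**Figure D5:**
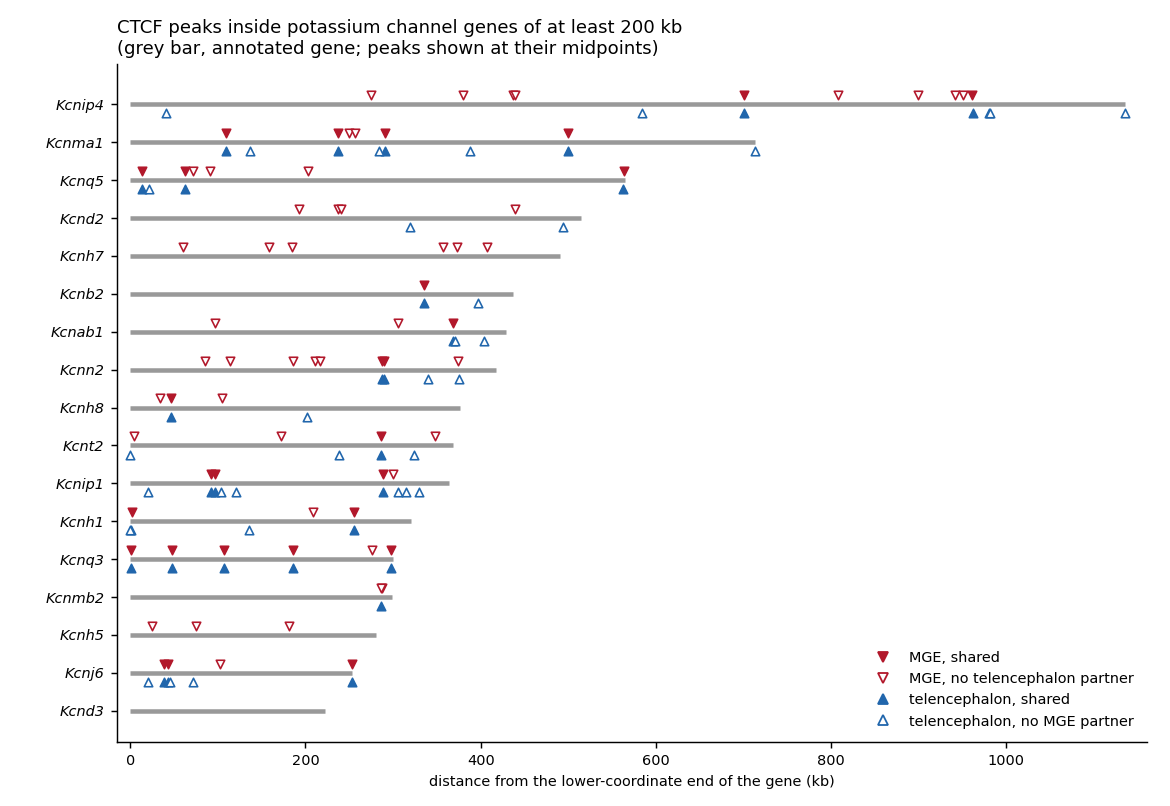
CTCF peaks inside the 17 potassium channel genes of at least 200 kb, drawn to scale from the lower-coordinate end of each gene (x axis, kb), with red MGE triangles above and blue telencephalon triangles below each gene. Filled triangles are shared peaks; Kcnq3 has 5 filled pairs, and Kcnd2, Kcnh7 and Kcnh5 have none.

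Peaks at gene ends were found at close to the share of all genes. The table gives no strand, exons or introns, so both ends were pooled, with 1 kb on each side. A peak lay there in 11 of the 90 genes in the MGE list (12.2%, 6.3 to 20.8; 12.1% of all genes) and in 18 in the telencephalon list (20%, 12.3 to 29.8; 19.3% of all genes), and 9 genes had one in both (10.5% of all genes). Kcnj11, the pore of ATP-sensitive channels that couple metabolism to excitability, had 2 gene-end peaks in each list: one across its higher-coordinate end, 594 bp wide in the MGE list (chr7:46100593-46101186) and 345 bp in the telencephalon list, and one 691 bp outside its other end in the MGE list (chr7:46096114-46096432). Kcna7, a Shaker-type pore, had a shared peak of 381 bp (chr7:45405067-45405447) and 735 bp (chr7:45404806-45405540) at 513 and 420 bp outside the gene. Kcnn4 had one of 400 bp across its higher-coordinate end (chr7:24384908-24385307) and 499 bp in the telencephalon list. Kcnk15 had one of 409 bp across its higher-coordinate end in the MGE list (chr2:163858496-163858904). Its partner in the telencephalon list was 304 bp wide and ended 30 bp inside the gene. Kcnk4, a stretch-sensitive leak channel, had one of 326 bp (chr19:6924436-6924761) and 334 bp at 901 and 919 bp from the gene.

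Gene ends with a peak in 1 list alone were found in 2 genes for MGE (1.58% of all genes) and 9 for telencephalon (8.79% of all genes). Both counts are near the shares of all genes. At Kcnq5 and Kcnd2 this came from the 1 kb limit, since the peak was shared and its partner lay just outside: the Kcnq5 site was 893 bp from the end among MGE peaks and 1183 bp among telencephalon peaks, and the Kcnd2 site 891 bp in the telencephalon list and 1194 bp in the MGE list. Kcnmb4, an auxiliary subunit of calcium-activated channels in neurons, had a 244 bp MGE peak 350 bp outside the gene (chr10:116474209-116474452), and the nearest telencephalon peak to it was 14400 bp away. The telencephalon gene-end peaks of Kcnma1, Kcnip4 (441 bp, chr5:49524754-49525194), Kcng3 (353 bp, chr17:83632843-83633195), Kcnh1 (295 bp, chr1:192189068-192189362) and Kcnv1 had no MGE partner. The distances from them to the nearest MGE peak were 2947 bp, 154710 bp, 43555 bp, 1212 bp and 125224 bp in that order.

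No peak within 50 kb in either list was found for Kcne4, Kcna4 and Kcnv2. Kcne4, an auxiliary subunit, had its nearest peaks 92093 bp away in the MGE list and 92105 bp away in the telencephalon list. Kcna4, an A-type pore of axons, had the most distant MGE peak of all 90 genes at 207134 bp, with the nearest telencephalon peak at 207196 bp. Kcnv2, a silent modifier known from photoreceptors, had its nearest peaks at 113377 bp and 58118 bp.

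Genes that work with potassium channels but carry other names were listed with them. All 16 of these had a peak within 50 kb in both lists (74% of all genes). A peak inside was found for 6 in the MGE list (37.5%, 15.2 to 64.6; 31.4% of all genes) and for 8 in the telencephalon list (50%, 24.7 to 75.3; 39.1% of all genes). Cntnap2, which clusters channels along axons and is 2241333 bp long, had 18 MGE and 10 telencephalon peaks with 7 shared. Dpp10 and Dpp6, auxiliary proteins of A-type pores, had 10 and 7 with 2 shared, and 8 and 11 with 4 shared. Hcn2, a pacemaker channel gene of 19475 bp, had 10 and 18 peaks. Adam22, a receptor for Lgi1 at synapses, had 3 in each list and none was shared. For comparison, a peak within 50 kb was found in the MGE and telencephalon lists for 14 and 14 of 14 voltage-gated sodium channel genes, 24 and 25 of 26 voltage-gated calcium channel genes, and 42 and 42 of 47 glutamate and GABA receptor genes (80.3% and 82.8% of all genes). A peak inside the gene was found for 71.4% and 78.6%, 61.5% and 69.2%, and 63.8% and 68.1% of these families in that order. Each share is above the 46.7% of the potassium channel genes in either list, without regard to gene length. The interval of each family overlaps that of the potassium channel genes (36.1 to 57.5), so these counts do not separate them.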

How the data were processed

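CTCF and input ChIP-seq libraries came from mouse telencephalon and MGE at embryonic day 13.5, 1 of each per tissue. Sonication gave fragments of about 500 bp, of which 1 part in 25 served as input, per the labels' protocols. The submitters' processing notes name Bowtie2 2.3.2, MACS2 2.1.1.20160309 and mm10. The threshold and control of peak calling are not stated there. In the authors' deposited lists the track names end in p001 (telencephalon) and p01 (MGE), and whether these are thresholds is not stated. The lists hold a chromosome, start and end per peak. 85 MGE and 93 telencephalon peaks off chromosomes 1 to 19, X and Y were set aside.

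Peaks were joined to RefSeq genes of GRCm38.p6 by overlap of at least 1 bp, in Python 3.11.15 with numpy 2.4.6, pandas 2.3.3, scipy 1.17.1 and matplotlib 3.10.9, and the scripts were tested on simulated data. Shares have exact 95% Clopper-Pearson intervals and densities exact Poisson intervals. Genes that share peaks make them too narrow. Motifs were searched in RefSeq promoter windows, since no genome sequence was used here. Genes named are the 8 with the most peaks, those with none, up to 8 with the widest gene-end peaks in both lists, up to 6 per list with one in that list alone, neighbours, and channels known from forebrain neurons; some of these are not reported here. The genes and lists were chosen with earlier results of these data known. Windows, peak width, overlap rules, gene ends and motifs were varied.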

Additional observations from a re-analysis of the deposited data

How the results depend on the processing

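No paired analysis was possible because each tissue has 1 CTCF library and the labels give no replicate numbers. Of 72 alternatives, 52 stayed within the interval or within 1.5 times the count and 20 moved. Each sets a list against itself. The order of the lists turned when the narrowest MGE width was made the minimum of both, given below. That cut removes telencephalon peaks and no MGE peak, so it does not treat the lists alike. Narrowing the window to 10 kb gave a shared share of 60.3% in the MGE list and 14.3 telencephalon peaks per Mb, and 100 kb gave 19.7. Keeping the wider 50% of peaks left 27 genes with a telencephalon peak inside, shared shares of 75.7% (MGE) and 59.4% (telencephalon), 7.88 and 9.95 peaks per Mb, and flank shares of 91.4% and 61.3%. Cutting the telencephalon list to as many peaks as the MGE list gave it a shared share of 62.5% and 14.3 peaks per Mb. The MGE list then had 66.5% and 13.5 per Mb. In both of these settings the MGE list kept the higher shared share and the lower density. Gene ends of 5 kb held peaks in 33 (MGE) and 40 (telencephalon) genes, and promoter windows extended by 500 bp met a peak in 7 and 11. Alternatives added after seeing the data also moved values. Keeping peaks of at least 244 bp in both lists turned the order of the lists, with shared shares of 59.4% (MGE) and 68.8% (telencephalon), 13.5 and 11.6 peaks per Mb, a peak within 50 kb of 81 and 77 genes and one inside 42 and 31. Leaving out peaks of 244 bp or less gave flank shares of 83.6% (MGE) and 67.3% (telencephalon). The shares inside the genes were then 56.2% and 61.2%. Shared shares and densities thus move with the widths kept, and the cause of each move was not tested. The unknown depth limits what the absence of a peak can show.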
